A study of Mus musculus with 20 samples.

Results

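Liproxstatin, an inhibitor of ferroptosis, was given to mice with long renal ischemia, and the cell composition of a treated kidney 14 d later was compared, cluster by cluster, with kidneys after the same ischemia and without inhibitor. All 19 clusters of the deposited annotation were used, and cells were chosen by their deposited condition. The liproxstatin condition was 1 library with 12605 of the 136794 cells in 20 libraries. The comparison group, IRI long 14 d, was 2 libraries with 14279 cells (IRF9 with 7229 and IRF12 with 7050, named by the prefix of their cell names).

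All mice were male C57BL/6J mice of 10 to 12 weeks, and IRI long means that both renal pedicles were clamped for 30 min. Liproxstatin (10 mg/kg) was dissolved in DMSO, formulated in sesame oil and injected intraperitoneally 30 min before ischemia and every 24 h for 14 d afterwards. The VX-765 library (100 mg/kg of a caspase-1 inhibitor used against pyroptosis, same schedule, 10610 cells) is the only other inhibitor library. The 6 control libraries held 37872 cells, and the remaining libraries came from IRI long at 1 and 3 d and from IRI short (23 min) at 1, 3 and 14 d, with 2 libraries each. The inhibitor mice belonged to a second set of experiments, and the labels name no vehicle for the IRI long 14 d libraries, so treatment and set of experiments cannot be told apart.

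Ferroptosis is an iron-dependent form of cell death in which oxidized membrane lipids accumulate, and liproxstatin traps the lipid radicals that drive it. The proximal tubule (PT) reabsorbs most of the filtered solutes at a high metabolic rate and is the nephron segment most often injured by ischemia. Its convoluted part (PCT) precedes its straight part (PST), which lies in the poorly oxygenated outer medulla. Neutrophils and macrophages enter the injured kidney, and their persistence accompanies failed tubular repair.

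The deposited tables hold a cluster, a condition and UMAP coordinates for each cell and no expression values, so cluster names could not be checked on marker genes. The unit is the share of a library's cells in a cluster, and the number of cells sets its precision, given as exact 95% binomial (Clopper-Pearson) intervals that cover counting error only. A share cannot tell a loss of cells of a type from a gain of others or from unequal recovery in dissociation. Shares were also taken within 3 compartments: PT (PCT, PST and PT), other tubule (5 clusters) and immune (6 clusters). A chi-square test of the cluster counts of the control libraries norm3 and norm4 found no difference beyond counting noise (21.9 on 15 degrees of freedom, p = 0.110), and they were counted as 1 sample, giving 5 control samples in means and fits. The liproxstatin library shared 10 cell barcodes with the control library Scl (14320 cells) and 0 to 3 with norm1 to norm4, but 22 with norm5 (6666 cells) and 6 to 35 with the IRI libraries (2064 to 10917 cells). It therefore had the barcode set of the IRI libraries and norm5. Against Scl and norm1 to norm4, condition and barcode set cannot be told apart. Values with norm5 as the only control are given where they bear on a result.

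The liproxstatin kidney was made up mostly of PT cells and held few immune cells, whereas the IRI long 14 d kidneys were made up mostly of immune cells. PT cells were 82.6% (95% interval 81.9 to 83.2) of the liproxstatin library, 11.2% of IRF9 and 5.11% of IRF12, a difference of 74.4 percentage points from the mean of 8.16% ± 4.32 (SD, n = 2). Immune cells were 5.13% (4.75 to 5.53) of the liproxstatin library, 64.5% of IRF9 and 75.2% of IRF12, a difference of -64.7 points from the mean of 69.9% ± 7.60 (SD, n = 2). The other tubule compartment took 9.25% (8.75 to 9.77) of the liproxstatin library against 9.35% and 9.12%, so that its share lay between those of the IRI long 14 d libraries. Compartments follow the deposited cluster names. In the study's first annotation, 323 DCT1, 258 Neutro_2 and 67 Neutro_1 cells of the IRI long 14 d libraries had been named PT S3. They count here as other tubule or immune. Conversely, 345 cells of their PT cluster had been named T cell_2. Inhibitor libraries have no first names, so compartments by first name could not be compared.

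The liproxstatin library had the highest PT share of all 20 libraries. In the 6 control libraries PT cells were 34.9 to 66.7%, and in the VX-765 library 58.8%. Its immune share lay within the control range of 4.07 to 12.4%, while the 12 IRI libraries without inhibitor held 25.9 to 75.2%. The other tubule share was below the control range of 24.3 to 47.1% and below the 21.9% of the VX-765 library. Compartment shares are sums over clusters in 1 library and were not tested.

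**Figure D1:**
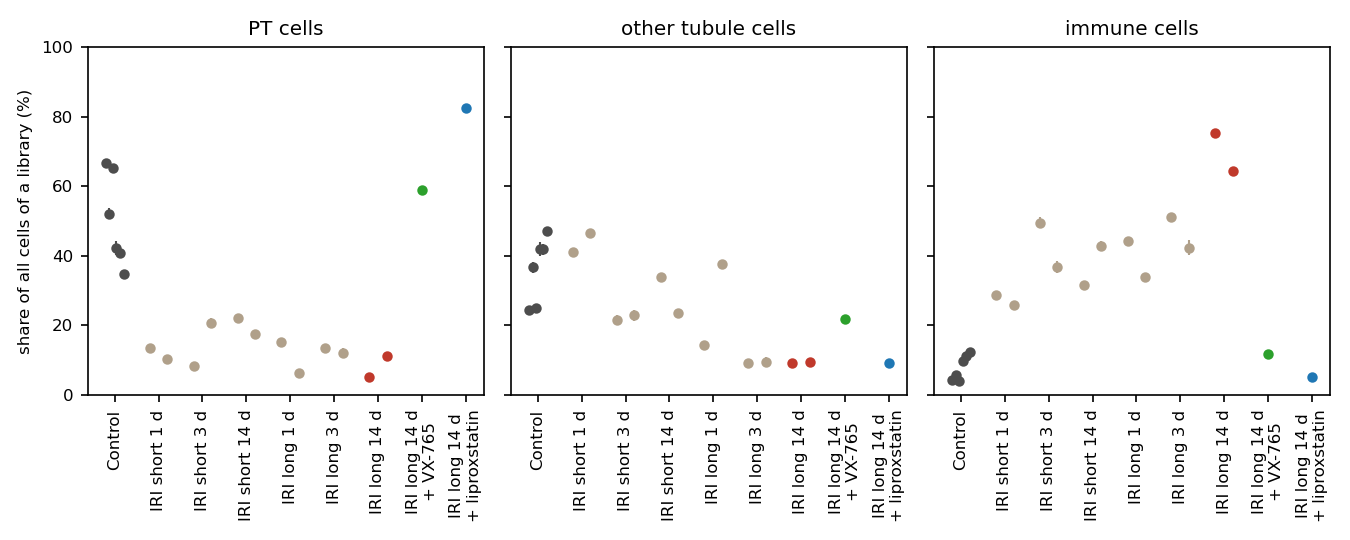
Share of all cells of a library (%) in the PT, other tubule and immune compartments, with 1 point per library and exact 95% binomial intervals as bars, often smaller than the point. The liproxstatin library (blue) lies at 82.6% PT and 5.13% immune cells, and the IRI long 14 d libraries (red) at 5.11 and 11.2% PT and at 64.5 and 75.2% immune cells.

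Of all cells, the liproxstatin share was above both IRI long 14 d libraries in 7 clusters, below both in 12 and between them in 0. In limma on the logit of the shares, 9 of the 19 clusters (47.4%) passed an adjusted p of 0.05, with 3 higher and 6 lower under liproxstatin, and 11 had an unadjusted p under 0.05. These tests rest on 1 treated library, which was assumed to vary as libraries of the other groups do. An exact permutation of 1 against 2 libraries could not give a p below 0.333. Differences of logits are natural-log odds ratios, written liproxstatin minus IRI long 14 d.

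All 3 PT clusters rose. PST, cells of the straight proximal tubule, were 41.6% of the liproxstatin library, 3.97% of IRF9 and 1.87% of IRF12, which is 14.2 times the IRI long 14 d mean. The logit difference was 3.23 (95% interval 2.08 to 4.38, limma adjusted p = 0.000209). PCT, the convoluted proximal tubule, was 19.1% against 2.07% in IRF9 and 0.879% in IRF12 (12.9 times the mean, logit difference 2.84, limma adjusted p = 0.00294). The cluster named PT, proximal tubule cells without a segment name, was 21.9% against 5.17% in IRF9 and 2.35% in IRF12 (5.81 times the mean, logit difference 2.04, limma adjusted p = 0.00437). In each of these clusters the liproxstatin library was the highest of all 20 libraries.

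Within the PT compartment the 3 clusters did not keep the same proportions, although none passed the threshold there. The PT cluster was 26.5% of the PT cells under liproxstatin and 46.1% in both IRF9 and IRF12 (logit difference -0.87, 95% interval -1.57 to -0.16, limma adjusted p = 0.0525). Its liproxstatin value was the lowest of all 20 libraries, just under the control range of 27.7 to 36.4%. PST made up 50.4% of the PT cells against 35.4 and 36.7%, and PCT 23.1% against 18.5 and 17.2%. For PST and PCT the intervals of the logit difference, -0.26 to 1.43 and -0.61 to 1.26, include 0.

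The PT cluster did not hold the same kinds of cells in each library by the study's first annotation, which covers 18 libraries and not the inhibitor libraries. Of the PT-cluster cells of the IRI long 14 d libraries, 63.9% had been named T cell_2 there, with 64.7% in IRF9 and 62.0% in IRF12. In control libraries this percentage was 0.0378 to 18.8%. For the liproxstatin cells, which carry no first name, the 30 nearest PT-cluster cells of other libraries in the UMAP were read instead. On average 9.89% of these neighbours had been named T cell_2 and 87.2% PT S1 or PT S3, against 43.1% T cell_2 around the cells of IRF9 and 44.5% around those of IRF12. The control libraries gave 11.5 to 17.97% and the VX-765 library 12.1%. Where cells carry first names, the neighbour value could lie far from their own T cell_2 percentage. Scl had 0.0378% by its own names and 17.97% among neighbours, and IRF9 had 64.7 and 43.1%. The 9.89% is therefore not an estimate of T cell_2 cells in the liproxstatin library. With PCT and PST alone, the difference in PT share was 56.3 percentage points. First names differed between libraries in these clusters too. PT S3 was the first name of 58.9% of PST cells in the IRI long 14 d libraries and of 79.3% in all 18. PT S1 was that of 86.8 and 92.5% of PCT cells.

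**Figure D2:**
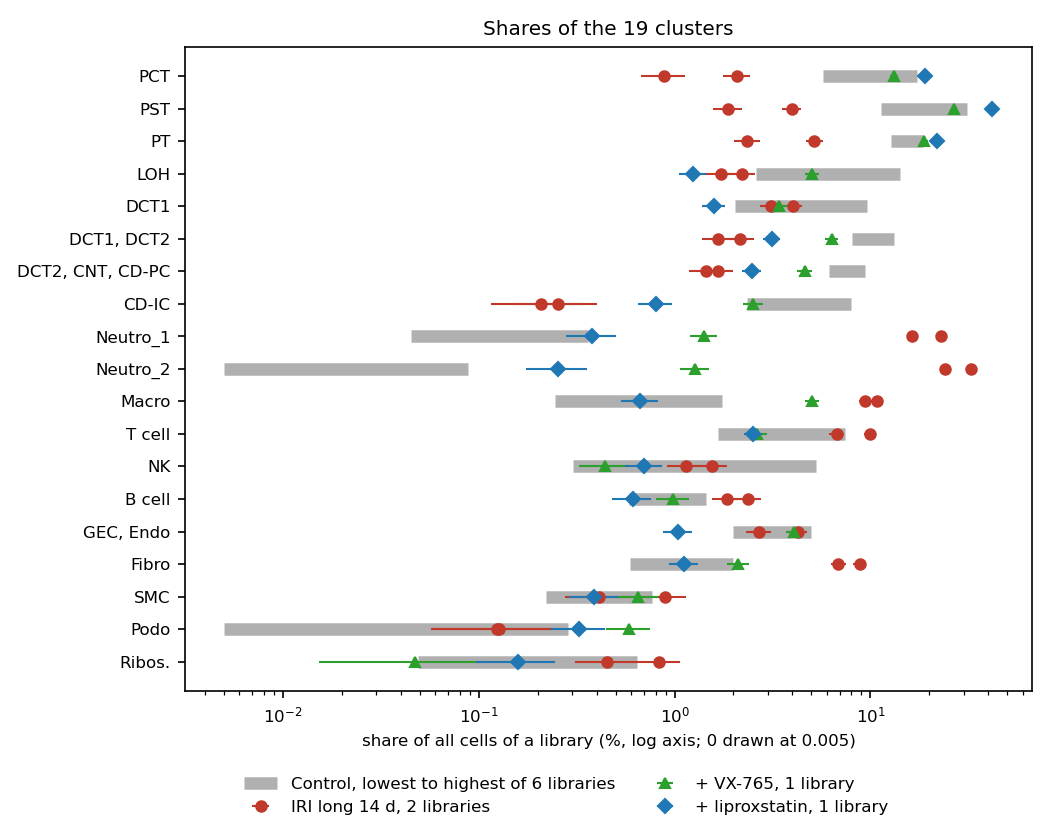
Share of all cells of a library (%, log axis) for the 19 clusters, with exact 95% binomial intervals. Grey bars span the lowest to the highest of the 6 control libraries (a share of 0 is drawn at 0.005). Liproxstatin (blue diamonds) lies above both IRI long 14 d libraries (red circles) in 7 clusters and below both in 12.

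Beyond the proximal tubule, none of the 5 other tubule clusters passed the threshold as a share of all cells. The liproxstatin share was above both IRI long 14 d libraries in 3 of them and below both in 2. CD-IC, the acid-base regulating intercalated cells of the collecting duct, were 0.801% of the liproxstatin library (101 cells), 0.207% of IRF9 (15 cells) and 0.255% of IRF12 (18 cells). The logit difference was 1.23 (95% interval 0.09 to 2.36, limma adjusted p = 0.0680). DCT1, of the salt-reabsorbing distal convoluted tubule, was 1.59% against 3.11 and 4.01% (logit difference -0.82, 95% interval -2.08 to 0.44). The loop of Henle (LOH) was 1.25% against 2.20 and 1.73%, while the clusters named DCT1, DCT2 and DCT2, CNT, CD-PC were 3.13 and 2.48% against at most 2.17%. In the first annotation of 18 libraries, 76.8% of the cells of the cluster DCT1, DCT2 had been named LOH and 20.1% DCT. Of the cluster DCT2, CNT, CD-PC, 51.5% had been named PC and 22.7% LOH.

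Within the other tubule compartment, DCT1 fell. It was 17.2% of these cells under liproxstatin, 33.3% in IRF9 and 44.0% in IRF12 (logit difference -1.11, 95% interval -1.91 to -0.30, limma adjusted p = 0.0443). The liproxstatin value lay inside the control range of 8.39 to 20.3%. Of the DCT1 cells of the IRI long 14 d libraries, 63.6% had been named PT S3 in the first annotation and 24.0% DCT. CD-IC was 8.66% of other tubule cells against 2.22 and 2.80% (limma adjusted p = 0.0525), inside the control range of 4.97 to 19.1%.

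The neutrophil clusters showed the largest fitted differences of all 19 clusters. Neutro_2 was 0.254% of the liproxstatin library (32 cells), 24.0% of IRF9 and 32.5% of IRF12, so that the IRI long 14 d mean was 111 times the liproxstatin share. The logit difference was -5.02 (95% interval -7.02 to -3.02, limma adjusted p = 0.000467). Neutro_1 was 0.381% (48 cells) against 16.3% in IRF9 and 23.0% in IRF12 (51.6 times lower, logit difference -4.13, limma adjusted p = 0.000209). Neutrophils of both clusters together were 0.635% of the liproxstatin cells against 40.3 and 55.6%. Both clusters carried mostly granulocyte names in the first annotation of 18 libraries (Granul_1 for 98.6% of Neutro_1 and Granul_2 for 91.2% of Neutro_2). In the IRI long 14 d libraries these percentages were 97.3 and 90.6%, while 2.39% of Neutro_1 and 6.40% of Neutro_2 had been named PT S3. Those were 67 of the 69 Neutro_1 cells and 258 of the 259 Neutro_2 cells with that name in the 18 libraries.

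Macrophages, phagocytes that clear dead cells and shape repair, also fell. Macro was 0.666% of the liproxstatin library (84 cells), 10.8% of IRF9 and 9.39% of IRF12 (15.2 times lower, logit difference -2.81, 95% interval -4.06 to -1.56, limma adjusted p = 0.00103). The B cell cluster was 0.611% against 1.85 and 2.38% (logit difference -1.25, limma adjusted p = 0.0350). T cell, at 2.52% against 9.95 and 6.75%, did not pass (logit difference -1.24, limma adjusted p = 0.0680), nor did NK, at 0.698% against 1.55 and 1.15% (limma adjusted p = 0.475).

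The immune cells that were present had another composition. Lymphoid cells (T cell, NK and B cell) were 74.7% of the immune cells under liproxstatin (483 of 647), against 20.7% in IRF9 and 13.7% in IRF12. Controls ranged from 68.4 to 94.9%. The immune compartment leaves out Fibro, with 141 cells under liproxstatin and 1121 in the IRI long 14 d libraries. Of the latter, 96.1% had been named Mono_1, a monocyte cluster. Shares of immune cells with Fibro included were not computed. T cell rose within the immune compartment, from 15.4% in IRF9 and 8.97% in IRF12 to 49.1% (logit difference 1.97, 95% interval 0.94 to 3.01, limma adjusted p = 0.0156). NK rose from 2.40 and 1.53% to 13.6% (logit difference 2.09, limma adjusted p = 0.0443). The NK call was lost in 13 of 26 alternative fits, among them the arcsine square root (limma adjusted p = 0.121). For DCT1, Neutro_2 and T cell this number was 10, 8 and 1. Neutro_2 fell from 37.3 and 43.3% to 4.95% (logit difference -2.54, limma adjusted p = 0.0443).

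The share of the remaining immune clusters did not pass the test within the compartment. B cell was 11.9% of immune cells against 2.87 and 3.17% (limma adjusted p = 0.0535). Neutro_1 was 7.42% against 25.2 and 30.6% (logit difference -1.56, 95% interval -3.66 to 0.54). Macro was 13.0% of immune cells under liproxstatin, between the 16.8% of IRF9 and the 12.5% of IRF12 (logit difference -0.12, 95% interval -1.64 to 1.39). T cell and NK thus took a smaller share of all cells, not past the threshold, and a larger share of immune cells.

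In the 3 compartments together, 4 of 14 clusters (28.6%) passed the threshold, with 2 higher and 2 lower, and 8 had an unadjusted p under 0.05. These calls depended on single libraries. Their number was 0 without IRF12, 1 without IRF9, IRF2, IRF11, IRF3, IRF4 or IRF7, 2 without IRF10 or IRF8, and 7 without norm5. T cell was lost only without IRF12.

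**Figure D3:**
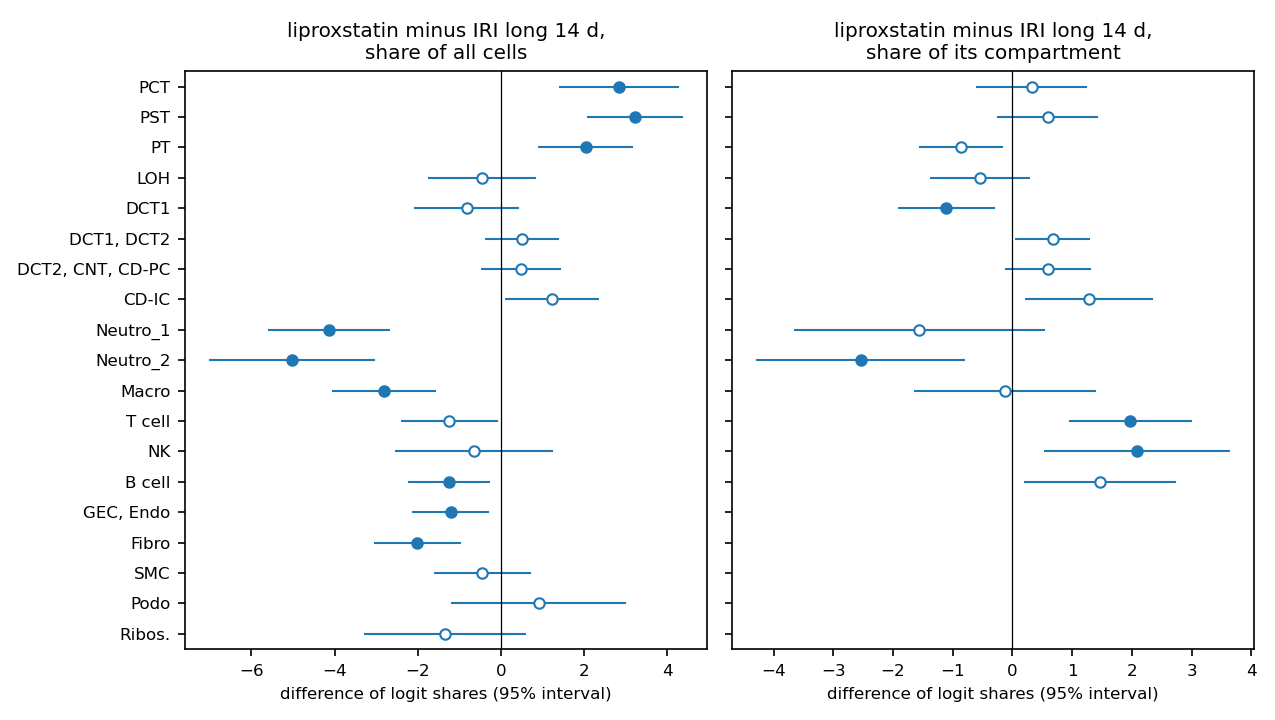
Difference of logit shares, liproxstatin minus IRI long 14 d, with 95% intervals from limma, for the share of all cells (left, 19 clusters) and of the own compartment (right, 14 clusters); filled points passed an adjusted p of 0.05. On the left PCT, PST and PT lie above 0 and 6 clusters below, and on the right T cell and NK lie above 0 and DCT1 and Neutro_2 below.

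Of the 5 clusters outside these compartments, Fibro and GEC, Endo fell. Fibro was 1.12% of the liproxstatin library (141 cells), 8.83% of IRF9 and 6.85% of IRF12 (7.01 times lower, logit difference -2.01, 95% interval -3.06 to -0.95, limma adjusted p = 0.00309). Despite its name, 96.1% of the Fibro cells of the IRI long 14 d libraries had been named Mono_1, a monocyte cluster, in the first annotation, and its cells are not called fibroblasts here. GEC, Endo, the glomerular and other endothelial cells, were 1.04% against 4.26 and 2.70% (logit difference -1.21, limma adjusted p = 0.0326). This liproxstatin share was the lowest of all 20 libraries, below the control range of 2.00 to 4.96%. As a share of non-immune cells GEC, Endo was 1.10% against 12.0 and 10.9%.

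The 3 smallest clusters did not pass. Podo, the podocytes of the glomerular filter, were 0.325% (41 cells) against 0.124 and 0.128% (9 cells in each library). SMC was 0.389% against 0.899 and 0.411%. Ribos., a cluster named for ribosomal genes, was 0.159% (20 cells) against 0.830 and 0.454%. The calls for B cell and for GEC, Endo were lost without IRF2 or IRF9, and that for B cell also without IRF12. The PT, Neutro, Macro and Fibro calls held in every fit that left out a library.

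Since immune cells were most of the IRI long 14 d libraries, the clusters were also compared with immune clusters per immune cell and the others per non-immune cell, a choice made after seeing the data. PT cells were 87.1% of the non-immune cells under liproxstatin, 31.6% in IRF9 and 20.6% in IRF12. These non-immune cells include Fibro, which was 1.18% of them under liproxstatin and 24.9 and 27.7% in the IRI long 14 d libraries. With Fibro counted as immune, immune cells were 6.25% of the liproxstatin library and 77.7% ± 6.20 (SD, n = 2) of the IRI long 14 d libraries. PST and PCT still passed (limma adjusted p = 0.00650 and 0.0384), whereas the PT cluster, 23.1% of non-immune cells against 14.6 and 9.51%, did not (limma adjusted p = 0.188). LOH was 1.31% of non-immune cells against 6.19 and 6.99% (limma adjusted p = 0.0355), and DCT1 1.67% against 8.77 and 16.2% (limma adjusted p = 0.0161). Fibro and GEC, Endo were lower as before, and SMC and Ribos. were added to the lower clusters. Both are counted as non-immune here, although many of their IRI long 14 d cells had immune names in the first annotation. Of these Ribos. cells 97.8% had been named T cell_2. Of the SMC cells 36.2% had been named T cell_2, 30.9% T cell_1 and 13.8% Macro. Macro and Neutro_1, now per immune cell, did not pass, and B cell passed as higher (limma adjusted p = 0.0487). In all 12 of the 19 clusters passed, 5 higher and 7 lower.

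The centred log-ratio, which sets each cluster against the geometric mean of all clusters, also called 9 clusters, but 5 higher and 4 lower. CD-IC (limma adjusted p = 0.0156) and the cluster DCT1, DCT2 (limma adjusted p = 0.0426) were added to the higher ones, and B cell and GEC, Endo were lost. The median difference over the 19 clusters was -0.65 for the logit and -0.11 for the centred log-ratio. LOH (0.09) and SMC (0.09) changed sign with it.

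Compared with control, the liproxstatin library had lower shares of tubule segments other than PT and of endothelium, though the endothelial call and 2 of the 4 tubule calls were lost with norm5 as the only control. The liproxstatin share was above all 6 control libraries in 6 clusters, below all in 6 and within their range in 7. In limma 5 of 19 clusters (26.3%) passed, all lower, and 7 had an unadjusted p under 0.05. These comparisons share the liproxstatin library with those above. LOH was 1.25% against 7.41% ± 4.47 in controls (SD, n = 5, limma adjusted p = 0.0461). The cluster DCT1, DCT2 was 3.13% against 10.5% ± 2.18, the cluster DCT2, CNT, CD-PC 2.48% against 7.47% ± 1.23, and CD-IC 0.801% against 4.06% ± 2.12 (SD, n = 5 each). GEC, Endo was 1.04% against 3.27% ± 1.12 (SD, n = 5, limma adjusted p = 0.0466).

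The PT clusters were higher than in every control library without passing the test. PST was 41.6% against 11.3 to 30.9% (logit difference 0.95, 95% interval -0.08 to 1.98), PCT 19.1% against 5.72 to 17.2%, and PT 21.9% against 12.7 to 18.5%. Macro, T cell, NK, B cell and Fibro were within the control range, which for NK ran up to the 5.30% of norm5. Neutro_1, at 0.381%, was just above its control range of 0.0450 to 0.363%. Neutro_2 was 0.254% against 0 to 0.0880% in controls (logit difference 2.21, 95% interval 0.42 to 4.00, limma adjusted p = 0.0594). In the control library with 0 of 14320 cells, the exact 95% interval reaches up to 0.0258%.

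These calls against control all lay close to the threshold, with limma adjusted p values between 0.0461 and 0.0466. Their number was 0 without norm1, IRF2, IRF11, IRF3, IRF10, IRF8, IRF4, IRF7, IRF12 or IRF9, and 3 without norm2. With norm5 as the only control, 7 clusters passed, 3 higher and 4 lower. LOH and the cluster DCT1, DCT2 still passed (limma adjusted p = 0.00428 and 0.0147). Most cells of the latter (76.8%) had been named LOH in the first annotation, so they are not read as separate segments. CD-IC (0.801 against 2.34%, limma adjusted p = 0.129), GEC, Endo (1.04 against 2.00%, limma adjusted p = 0.183) and the cluster DCT2, CNT, CD-PC (2.48 against 7.80%, limma adjusted p = 0.0867) were lost. PST (41.6 against 11.3%, limma adjusted p = 0.0193), Neutro_1 (0.381 against 0.0450%, limma adjusted p = 0.00428) and Neutro_2 (0.254 against 0.0300%, limma adjusted p = 0.0431) passed as higher. DCT1 (1.59 against 9.57%, limma adjusted p = 0.0135) and NK (0.698 against 5.30%, logit difference -2.07, limma adjusted p = 0.00428) passed as lower. Under the arcsine square root 3 passed, 1 higher and 2 lower, and under the centred log-ratio 0. Within compartments, 0 of 14 clusters (0%) passed against control in limma, and 1 (Neutro_2, 4.95% of immune cells) had an unadjusted p under 0.05.

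Liproxstatin and VX-765 were compared as 1 library each. PT cells were 82.6 against 58.8%, other tubule cells 9.25 against 21.9%, and immune cells 5.13 against 11.8%. In limma 0 of 19 clusters (0%) passed, and 2 had an unadjusted p under 0.05. These were Macro, 0.666% against 5.02% (logit difference -2.06, 95% interval -3.50 to -0.62, limma adjusted p = 0.128), and GEC, Endo, 1.04% against 4.08% (logit difference -1.40, 95% interval -2.46 to -0.33, limma adjusted p = 0.128). The intervals for the other clusters include 0 and are wide, as for PST (0.67, -0.66 to 2.00), so that like shares were not shown. Of the immune cells, Macro was 13.0% under liproxstatin and 42.7% under VX-765, and T cell 49.1 and 22.4%.

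**Figure D4:**
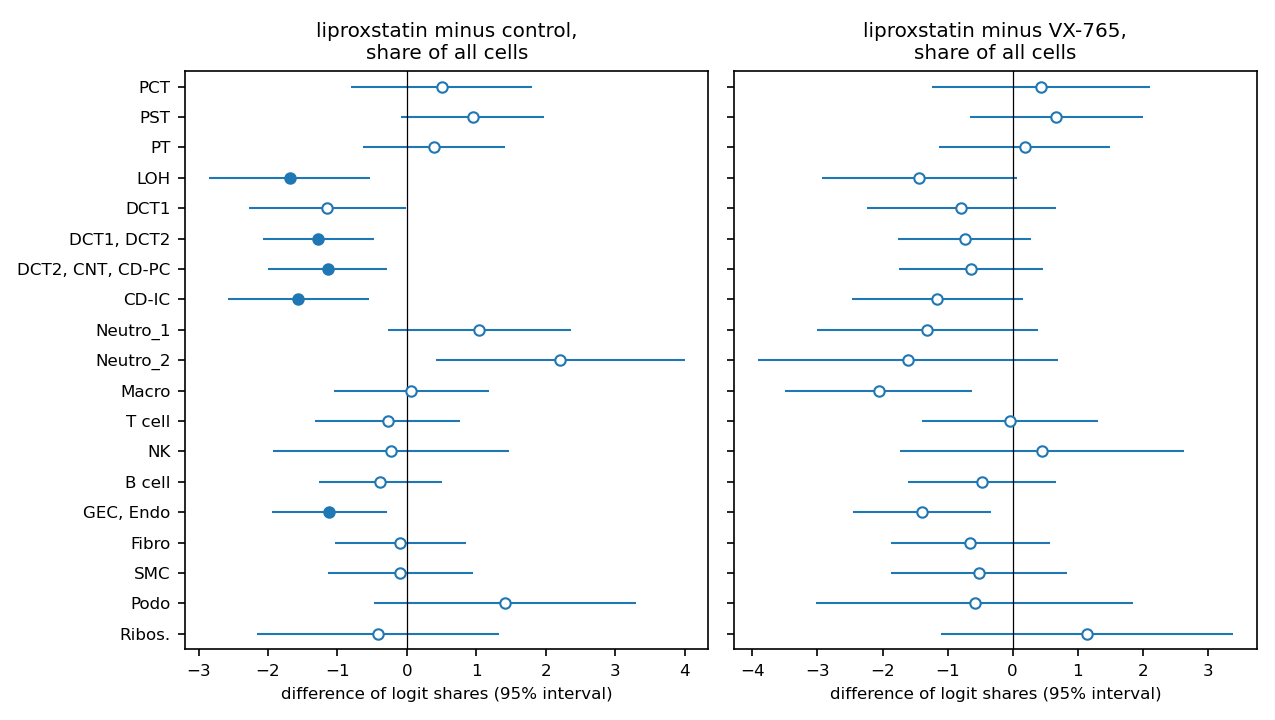
Difference of logit shares of all cells, liproxstatin minus control (left) and liproxstatin minus VX-765 (right), with 95% intervals from limma; filled points passed an adjusted p of 0.05. On the left LOH, CD-IC, GEC, Endo and the clusters DCT1, DCT2 and DCT2, CNT, CD-PC are filled and below 0, and on the right none is filled.

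Where liproxstatin cells lie inside a cluster was read from the UMAP coordinates, which were made by the authors from all libraries together. For each cell the 30 nearest cells were taken among equal numbers of control and IRI long 14 d cells of its cluster, so that 50% would mean no preference. The cluster PT showed the widest separation between groups. Control cells were 61.2% of the neighbours of liproxstatin cells, 60.2 to 63.7% for control libraries, 61.1% for VX-765, and 40.5 and 40.8% for the IRI long 14 d libraries. The reference classes differed in their first names here. Of the IRI long 14 d cells of this cluster 63.9% had been named T cell_2, against 0.0378 to 18.8% in control libraries. Whether the separation goes beyond this difference was not tested.

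In the other clusters the liproxstatin values were nearer to 50%. They ran from 48.7% in PST to 55.2% in GEC, Endo, and the mean over all 13 clusters with enough cells, PT included, was 52.4%. In the cluster DCT1, DCT2 the liproxstatin value of 52.9% lay in the control range of 50.8 to 54.5% and above the 44.2 and 45.9% of the IRI long 14 d libraries. In Fibro, 50.5% lay above the 46.3 and 47.1% of those libraries. DCT1, at 54.8%, was below the control range of 58.1 to 62.9% and between the 50.7 and 60.1% of the IRI long 14 d libraries. With 100 neighbours it was 48.3%, above their 44.3 and 48.1%. The densest point of the UMAP was in PST for the liproxstatin library, in Neutro_2 for both IRI long 14 d libraries and in PT for VX-765.

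**Figure D5:**
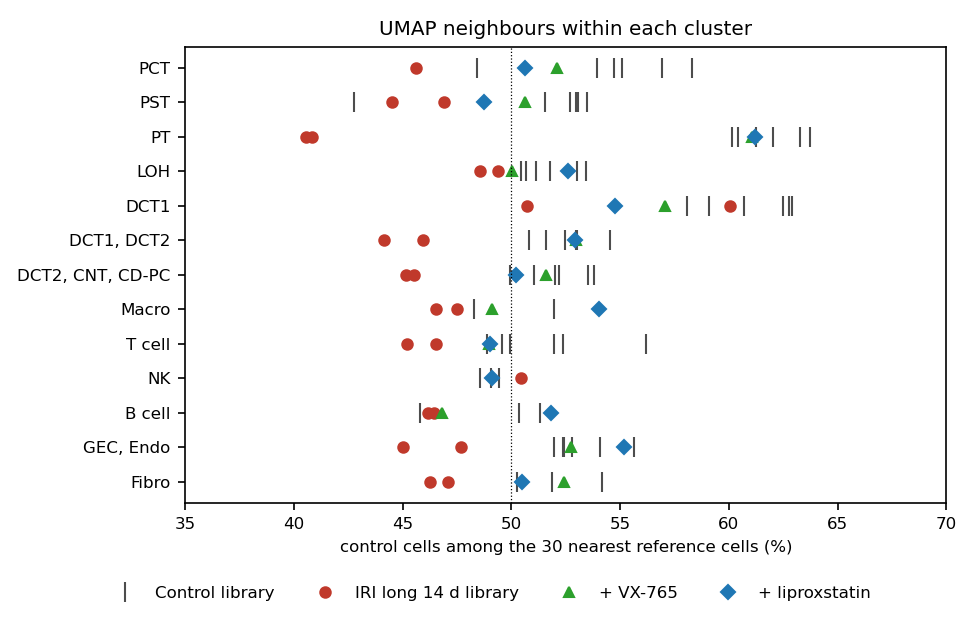
Control cells (%) among the 30 nearest reference cells in the UMAP, for cells of each library within 13 clusters, with a dotted line at 50%. In the cluster PT the liproxstatin library lies at 61.2%, inside the control libraries (60.2 to 63.7%), and the IRI long 14 d libraries lie at 40.5 and 40.8%. Of the IRI long 14 d cells of this cluster 63.9% had been named T cell_2 in the first annotation.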

How the data were processed

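Single-cell RNA-seq libraries of mouse kidney (10X 3′ v3) were aligned by the authors with Cell Ranger, filtered by gene number and mitochondrial percentage, cleared of doublets, integrated with LIGER and clustered, and clusters were named by hand. Seurat and the builds mm10 and GRCm38 are in the submitters' processing notes. The cell number that the study gives for its 20-library dataset is not that of the deposited annotation. The deposited tables hold no measured unit such as a count: they give labels and UMAP coordinates per cell. Libraries were identified by cell-name prefixes and grouped by the deposited condition of their cells.

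Shares were compared with limma 3.58.1 (R 4.3.3) on the logit with 0.5 cells added and 1 mean for each of the 9 groups. All 20 libraries entered, with the logits of norm3 and norm4 averaged into 1 sample. Benjamini-Hochberg adjustment was over 19 clusters (14 within compartments). The study permutes cells, which are not replicates. The smallest library held 2064 cells. Labels do not say which samples are separate animals beyond their numbers, so p-values measure the spread between libraries. UMAP neighbours used at most 500 cells per class and clusters with at least 100 reference and 50 query cells. The density used 120 bins per axis and a smoothing SD of 2 bins. Python 3.11.15, numpy 2.4.6, pandas 2.3.3, scipy 1.17.1, scikit-learn 1.9.0 and matplotlib 3.10.9 were used.

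All 19 clusters are named, with library values for those past the threshold or over 2-fold outside both IRI long 14 d libraries. Compartments, clusters and tests were chosen with earlier results of these data known. Alternatives were 1 cell added, arcsine square root, centred log-ratio, a filter of 10 cells in 2 libraries, fewer groups, thinning, weights, robust variance, leaving out each library and, for UMAP neighbours, 10 or 100 neighbours or another seed. The result of leaving out 1 of the libraries is not reported here by name. Added after seeing the data were norm3 and norm4 as 2 samples, norm5 alone as control, separate denominators for immune and other clusters, and PCT and PST alone.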

Additional observations from a re-analysis of the deposited data

Results flagged for a closer look

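The share of CD-IC was 7.74% in the control sample made of norm3 and norm4, and 2.34 to 3.84% in the other 4 control samples, a gap of 0.722 of the whole range (Dixon's criterion at 95%). This sample raises the control mean of 4.06% against which the liproxstatin share of 0.801% was set. It was 1 of 22 values examined in this way, and chance alone flags about 1 in 20.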

How the results depend on the processing

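No paired analysis was possible because the libraries could not be matched to the sample numbers of the labels and each inhibitor has 1 library. Leaving out each library in turn gave 7 to 9 clusters of all cells called against IRI long 14 d, 0 to 7 within compartments, 0 to 7 against control and 0 to 1 against VX-765 (1 without Scl or norm1). Within compartments, 7 clusters were called with 1 cell added, 8 with weights from the cell number, 10 with IRI and inhibitor libraries only, 8 with 14 d libraries only and 7 with norm3 and norm4 as 2 samples. The arcsine square root called 5 there, 1 higher and 4 lower. Against control, the arcsine square root called 3 and the centred log-ratio 0. Against VX-765, weights called 2, IRI and inhibitor libraries only called 2, and 14 d libraries only called 1. The PT difference was 56.3 percentage points with PCT and PST alone. The other tubule difference of 0.0144 points was -0.101 without IRF12, 0.130 without IRF9 and -0.0308 without Ribos. in the denominator, all within 1 SD. None of these values sets aside the DCT1 cells of the IRI long 14 d libraries, of which 63.6% had been named PT S3. The calls against IRI long 14 d as a share of all cells stayed within 1.5 times their number under the alternatives run. The causes of these changes were not tested.

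Logit differences changed sign as follows. With immune clusters per immune cell and others per non-immune cell, T cell was 1.97, NK 2.09, B cell 1.47, the cluster DCT1, DCT2 -0.70, the cluster DCT2, CNT, CD-PC -0.72 and Podo -0.26 against IRI long 14 d. With the centred log-ratio, LOH was 0.0897 and SMC 0.0892 against IRI long 14 d, and Fibro was 0.0638 and SMC 0.0620 against control. Against control, Macro was -0.0018 on the arcsine scale and -0.24 with norm5 as the only control, and after thinning to 2064 cells NK was 0.0571 and SMC 0.103. Leaving out 1 library gave -0.298 to 0.0496 for Macro within immune cells against IRI long 14 d, and against control -0.17 to 0.32 for Macro, -0.49 to 0.23 for NK, -0.205 to 0.0271 for Fibro and -0.201 to 0.0516 for SMC. None of these differences against control passed the threshold. Of 13 UMAP neighbour values, 8 moved by over 1 SD of the control libraries with another number of neighbours or seed, and PT did not. Cell number limits the small clusters, from Ribos. with 20 to CD-IC with 101 cells in the liproxstatin library.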
